A study of Mus musculus with 21 samples.

Results

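M11GFP (M11) is a line of mouse breast cancer cells recovered from a spontaneous lung metastasis of E0771GFP cells, and it was compared with E0771GFP itself, the parental line, across all genes. E0771 is a cell line from a mouse mammary tumour, and GFP is the green fluorescent protein that marks the cells. The members were the libraries whose titles name these lines: 3 of M11 and 3 of the parental line, 6 of the 21 libraries in the series. Both lines were untreated, carried GFP and, per the labels, grew in the same medium with calf serum. A second line of the same origin, M12GFP (M12, 3 libraries), is given beside M11 where it shows how M11 differs. The remaining 12 libraries (empty vector, ZBTB18 overexpression, and the overexpressing line with an inducible TGFBR2 given TGF-β1 or vehicle) entered the filter, the scaling and the estimate of spread. Levels in the empty vector line are also given for some genes. M11 is a single line, set against a single group of parental libraries. What is particular to this line, what to these parental libraries and what comes with growth in the lung cannot be told apart. The labels state neither the number of founding cells, nor the time in culture, nor that replicates were separate cultures, so p-values measure the spread between these libraries.

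To form a metastasis, tumour cells leave the primary site, survive in the circulation and grow in the tissue they reach. Genes often studied in this setting encode the extracellular matrix, the proteases that cut it, integrins that bind it, the contractile actin cytoskeleton, and factors that shift epithelial cells towards a mesenchymal state. Interferon-stimulated genes and MHC class I genes are studied there as well, since they bear on how the immune system meets a tumour cell.

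M11 libraries held 24208569 to 44063339 counts and parental libraries 34323595 to 44136813. Levels below are CPM, the counts of a gene relative to the scaled library total, as mean ± SD of 3 libraries where a mean is given. Parental replicate 1 stood apart: 14% of its counts fell on Gm42418, a gene model that overlaps ribosomal RNA sequence, while no other library exceeded 0.0918%, and it was scaled by a factor of 0.839. The share of mitochondrially encoded genes was 1.8 to 3.42% in M11 and 2.41 to 2.56% in the parental line, and 0 of the 10 tested passed the threshold with edgeR, while 3 were higher on TPM or without parental replicate 3 and 1 without M11 replicate 3. The median SD across genes on the log2 scale was 0.179 in M11 and 0.198 in the parental line.

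M11 differed from the parental line at a large part of its genes. Of 15432 genes tested, 6288 passed the threshold of an adjusted p under 0.05 (40.7%), 3207 higher in M11 (20.8%) and 3081 lower (20%). At least 2-fold differences were seen for 1083 of the higher genes (7.02%) and 701 of the lower ones (4.54%). M11 and parental libraries did not overlap for 41.5% of all genes. Higher calls made up 51% of all calls. That split depends on the scaling: with library totals alone it was 3725 higher and 2056 lower, and on TPM 4410 higher and 1287 lower (log2(TPM + 1)) or 4492 and 1282 (log2(TPM + 0.1)). The TPM fits moved the median of all genes by 0.137 and 0.199 on the log2 scale, and TPM-based directions below include that shift. Higher calls made up 77.4% and 77.8% of all TPM calls, so a list that leans higher on TPM may only follow all genes. With the 6 libraries fitted alone, 4015 genes passed.

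**Figure D1:**
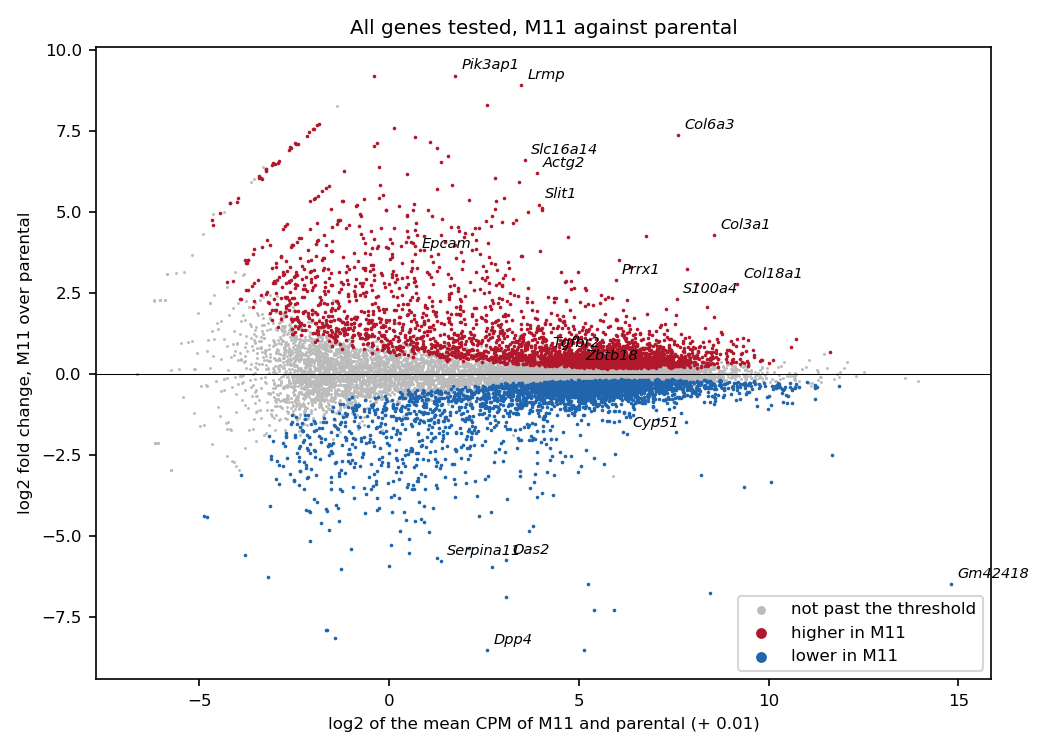
Each point is 1 of 15432 genes; the x axis is the log2 of the mean CPM of M11 and parental libraries (+ 0.01), and the y axis the log2 fold change of M11 over the parental line. Red points were higher and blue points lower in M11 at an adjusted p under 0.05, and grey points did not pass; Col6a3 stands at 7.37 and Dpp4 at -8.53.

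The 3 genes that mark this comparison moved far and in all replicates. Col6a3, which encodes a chain of collagen VI, a microfibril of the matrix around cells (ENSMUSG00000048126.16, minus strand, chr1:90765923-90843971 on mm10), had 372, 387 and 404 CPM in M11, against 2.83, 2.46 and 1.7 CPM in parental cells (log2 fold change 7.37, SE 0.23, adjusted p = 2.76e-14). It stood at 93.9, 94.5 and 124 CPM in M12. Actg2, the smooth muscle γ-actin (ENSMUSG00000059430.14, minus strand, chr6:83512905-83536265), had 27.1, 28.9 and 31.8 CPM in M11, against 0.595, 0.319 and 0.284 CPM in parental cells (log2 fold change 6.20, SE 0.36, adjusted p = 6.14e-11). Dpp4, a cell surface peptidase also called CD26 (ENSMUSG00000035000.8, minus strand, chr2:62330073-62412231), was almost absent from M11, with 0.0445, 0 and 0.0407 CPM in M11, against 14.9, 12.4 and 8.38 CPM in parental cells (log2 fold change -8.53, SE 0.49, adjusted p = 3.61e-10). M11 held 3 reads of Dpp4 in all, against 1363 in the parental libraries, a level 403-fold lower in M11 with a 95% counting interval of 137 to 1950. None of the 3 genes had M11 and parental libraries that overlapped, beside 41.5% of all genes without overlap.

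Among the 12 largest rises were Pik3ap1, Lrmp and Hcls1. Pik3ap1, an adaptor that links receptors to PI3-kinase in B cells, had 6.99, 6.33 and 6.59 CPM in M11, against 0, 0.0228 and 0 CPM in parental cells (log2 fold change 9.20, SE 0.45, adjusted p = 1.93e-12). In reads, this was 678 in M11 and 1 in the parental line, which gives a level 765-fold higher in M11 (137 to 30300, 95% counting interval). Lrmp, a membrane protein of the endoplasmic reticulum first described in lymphoid cells, averaged 22.1 ± 2.2 CPM in M11 and 0.0417 ± 0.037 in the parental line (log2 fold change 8.91, SE 0.44, adjusted p = 2.58e-12). Hcls1, the blood cell relative of cortactin, averaged 11.8 ± 0.77 CPM in M11 and 0.036 ± 0.018 in the parental line (log2 fold change 8.30, SE 0.44, adjusted p = 4.89e-12). In M12 these 3 genes stood at 18.8, 12.9 and 22.2 CPM. The defining blood markers Ptprc, Cd3e and Adgre1 had 0 reads in every M11 and every parental library. The summed level of the 10 blood and immune markers was 7.49 to 14.2 CPM in M11 and 7.2 to 11.9 in the parental line. Of the 3 tested, Cd14 and Lyz2 were lower in M11, and the most abundant, the macrophage marker Cd68, did not pass, with 381, 415 and 154 reads in M11, against 263, 123 and 151 in the parental line. The Lyz2 call was lost without M11 replicate 2 or 3 or parental replicate 3 (adjusted p = 0.0669 to 0.0838).

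The remaining largest rises were of mixed function. Slc16a14, a member of the monocarboxylate transporter family, averaged 23.4 ± 1.1 CPM in M11 and 0.246 ± 0.14 in the parental line (log2 fold change 6.60, SE 0.34, adjusted p = 3.3e-12). Gldc, the glycine decarboxylase of the mitochondrial glycine cleavage system, averaged 5.07 ± 0.16 CPM in M11 and 0.0493 ± 0.036 in the parental line (log2 fold change 6.53, SE 0.48, adjusted p = 8.37e-10). Faim2, an inhibitor of Fas-driven cell death, rose by 6.06 on the log2 scale, and Fcho1, which takes part in clathrin-mediated uptake, by 5.93. Sncg, the γ-synuclein gene, rose by 5.83, the TRIM family gene Trim66 by 5.43 and the muscle peptidase gene Ky by 5.36. M11 libraries lay above all parental libraries for each of these 7 genes, as the rule that chose them requires.

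Among the largest falls, Tex19.2, a gene known from the male germline, averaged 0.14 ± 0.041 CPM in M11 and 16.8 ± 2 in the parental line (log2 fold change -6.90, SE 0.20, adjusted p = 6.93e-16). Serpina11, a serine protease inhibitor family gene, averaged 0.0944 ± 0.066 CPM in M11 and 5 ± 0.58 in the parental line (log2 fold change -5.77, SE 0.41, adjusted p = 4.99e-10), and Ablim1, which encodes an actin-binding LIM protein, 0.2 ± 0.044 CPM in M11 and 8.34 ± 0.15 in the parental line (log2 fold change -5.38, SE 0.35, adjusted p = 9.47e-11). Rasgrp2, an activator of the small GTPase RAP1, averaged 1 ± 0.22 CPM in M11 and 26.5 ± 6 in the parental line (log2 fold change -4.68, SE 0.20, adjusted p = 3.38e-13). Slc22a18, a transporter gene, changed by -4.27 on the log2 scale, the zinc finger gene Zfp600 by -3.86 and Wfdc1, which encodes a secreted protein with a WAP domain, by -3.80. Zfp600 belongs to a family of near-identical copies, so its value depends on how reads were shared between them. Oas2 and Ifi27l2a, both induced by interferon, are described with that group. Hist1h1d and Hist1h4d, histone genes whose transcripts mostly lack a polyA tail, also ranked here (-4.40 and -3.81). Their level rested on parental replicate 1, as for Gm42418: Hist1h1d had 0.512, 0.407 and 0.448 CPM in M11, against 28.3, 0.524 and 0.568 CPM in parental cells. Without parental replicate 1 the changes were -0.248 (adjusted p = 0.59) for Hist1h1d, -0.515 (0.21) for Hist1h4d and -0.261 (0.439) for Gm42418.

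**Figure D2:**
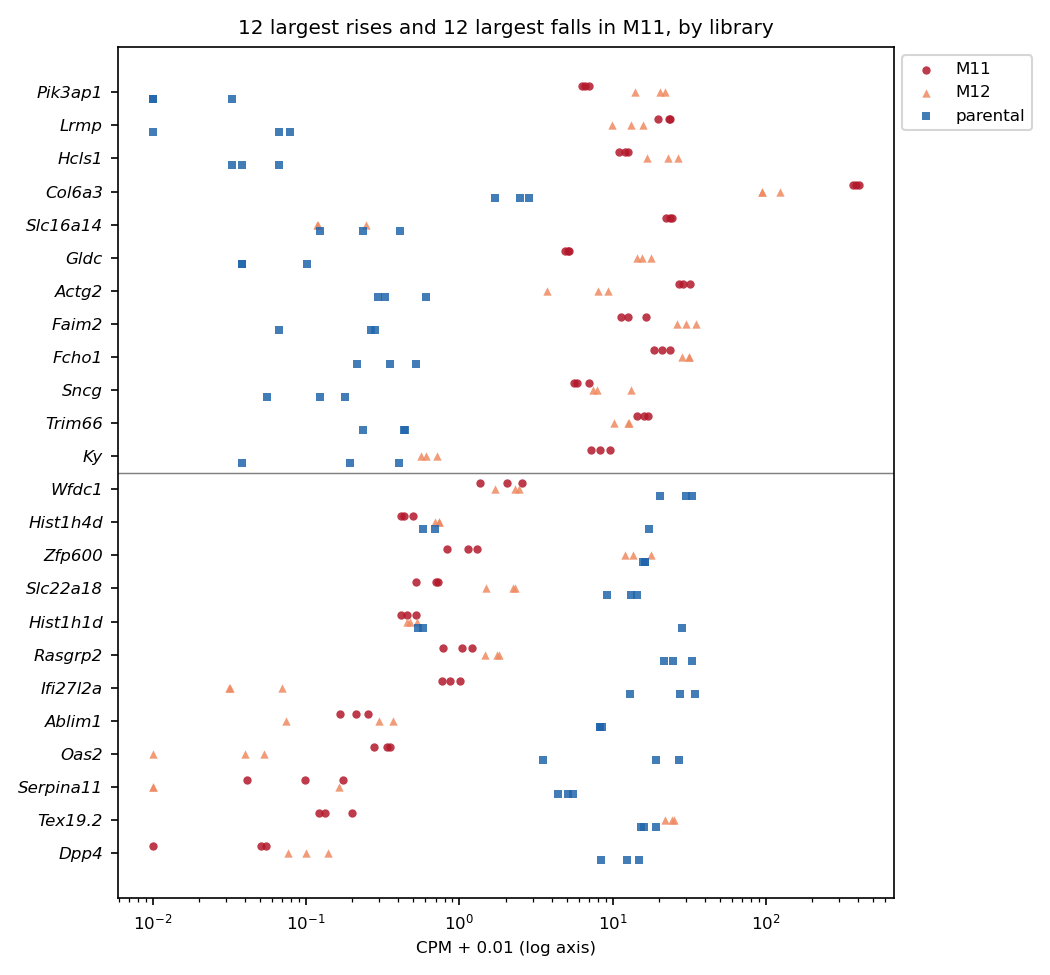
CPM + 0.01 on a log axis for the 12 largest rises (above the line) and 12 largest falls (below it) in M11, with 1 point per library: M11 circles, M12 triangles, parental squares. For Hist1h1d and Hist1h4d a single parental library, at 28.3 and 17.2 CPM, lies away from the other 2.

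Matrix genes were mostly higher in M11. Of 28 tested, 17 rose and 3 fell, with a median log2 fold change of 0.63, beside 20.8% higher, 20% lower and a median of -0.0006 over all genes. The same values over all genes are the background for each list below. Col3a1, the collagen III chain, had 589, 797 and 779 CPM in M11, against 37.1, 38.5 and 35.8 CPM in parental cells (log2 fold change 4.28, SE 0.25, adjusted p = 2.52e-10). Col18a1, whose product sits in basement membranes and is cut to endostatin, had 774, 1073 and 1172 CPM in M11, against 162, 139 and 144 CPM in parental cells (log2 fold change 2.76, SE 0.15, adjusted p = 4.89e-12). Against these, Thbs2, the matricellular thrombospondin 2, fell (0.187 ± 0.12 CPM in M11 and 1.39 ± 0.03 in the parental line, log2 fold change -2.99, SE 0.50, adjusted p = 6.22e-05), and so did Col1a1, a chain of collagen I (0.992 ± 0.17 CPM in M11 and 4.7 ± 1.3 in the parental line, log2 fold change -2.24, SE 0.37, adjusted p = 7.25e-05). Col1a2, its partner chain, had 0 to 2 reads in M11 libraries and 1 to 3 in parental ones. The partner chains of Col6a3, chosen after their values were seen, changed far less than it did: Col6a1 by 0.70 (adjusted p = 0.00182) and Col6a2 by 0.52 (adjusted p = 0.0927). The summed CPM of the list was 6070 to 8058 in M11 and 3682 to 3933 in the parental line.

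Contractile and actin genes and mesenchymal factors moved in 1 direction. Of 33 contractile and actin genes tested, 22 rose and 0 fell (median 0.59). Besides Actg2, Mylk, the myosin light chain kinase, had 5.39, 5.26 and 7.08 CPM in M11, against 1.5, 1.03 and 1.68 CPM in parental cells (log2 fold change 2.08, SE 0.23, adjusted p = 2.69e-07), Pdlim5, a scaffold at actin stress fibres, averaged 133 ± 18 CPM in M11 and 40.7 ± 6.2 in the parental line (log2 fold change 1.71, SE 0.15, adjusted p = 2.24e-08), and the focal adhesion gene Tgfb1i1 16.5 ± 1.9 CPM in M11 and 5.69 ± 1.1 in the parental line (log2 fold change 1.53, SE 0.14, adjusted p = 3.53e-08). Of 19 mesenchymal and EMT (epithelial to mesenchymal transition) genes, 12 rose and 0 fell (median 0.47). Prrx1, a homeobox factor of mesenchyme, had 111, 110.2 and 109.5 CPM in M11, against 16.7, 12.4 and 15.5 CPM in parental cells (log2 fold change 2.90, SE 0.14, adjusted p = 1.21e-12). S100a4, a calcium-binding protein much studied in metastasis, had 300.1, 416 and 239 CPM in M11, against 52.8, 76.8 and 64.3 CPM in parental cells (log2 fold change 2.30, SE 0.23, adjusted p = 2.84e-07). Sox9, a transcription factor gene, averaged 70.8 ± 10 CPM in M11 and 29 ± 3.2 in the parental line (log2 fold change 1.29, SE 0.13, adjusted p = 7.46e-08), and Nt5e, which encodes the ectonucleotidase CD73, averaged 160.0 ± 25 CPM in M11 and 68.2 ± 18 in the parental line (log2 fold change 1.23, SE 0.14, adjusted p = 4.4e-07). The empty vector line averaged 3.59 CPM for Mylk, 105 for Pdlim5, 12.9 for Tgfb1i1, 76.4 for Prrx1, 53.1 for Sox9 and 139.5 for Nt5e. These means lay between the parental and M11 means, while S100a4, at 56 CPM, lay below the parental mean.

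Epithelial genes did not move together: of 18 tested, 5 were higher and 6 lower (median -0.15), and 5 and 4 with a minimum of 1 CPM in 3 libraries. Epcam, an epithelial adhesion molecule, had 2.69, 3.04 and 3.22 CPM in M11, against 0.17, 0.296 and 0.199 CPM in parental cells (log2 fold change 3.70, SE 0.25, adjusted p = 1.5e-10), and Ocln, a tight junction protein, averaged 12.5 ± 1.2 CPM in M11 and 3.61 ± 0.32 in the parental line (log2 fold change 1.79, SE 0.17, adjusted p = 4.61e-08). Esrp2, an epithelial splicing factor, and Tjp3, a tight junction scaffold, were lower (-1.51 and -2.13); both stood near 1 CPM in the parental line. The Esrp2 call is lost on TPM, and that of Tjp3 without M11 replicate 1 (adjusted p = 0.0582). The empty vector line averaged 3.18 CPM for Epcam, above the M11 mean of 2.98, while M12 averaged 1.72. For Ocln it averaged 7.42 CPM, between the parental and M11 means. For Esrp2 and Tjp3 the empty vector line averaged 0.512 and 0.178 CPM, beside 0.438 and 0.25 in M11 and 1.27 and 1.04 in the parental line. Krt7, a keratin gene chosen after its values were seen, had 0 reads in M11 and 83 in the parental line, so it was at least 24.5-fold lower against a floor of 3 reads over the group. The breast cancer label was checked with 6 tumour epithelium markers: Krt8 had 4440 to 6907 reads in M11 libraries and 5842 to 8363 in parental ones, while Cdh1, the E-cadherin gene, had 0 to 4 and 2 to 4. Of the 5 tested, Epcam and Krt18 were the 2 that rose and 0 fell. Krt18 rested on 17, 3 and 13 reads in M11, against 2, 1 and 4 in the parental line, and its groups overlapped. The count of 2 was 1 without M11 replicate 3, without parental replicate 2 and with the 6 libraries alone.

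Markers of lung and stroma were read as a check on other cells. Of the 10 lung epithelium markers, Nkx2-1, Sftpa1, Sftpd and Scgb1a1 had 0 reads in every M11 and parental library. Sftpb, Sftpc and Foxj1 had at most 1 read in any of these libraries. Hopx had 118 to 244 reads in M11 libraries and 207 to 376 in parental ones. Ager had 19 to 51 and 24 to 55, and Aqp5 5 to 11 and 8 to 15. Of that list, 3 genes were tested and 0 passed, and its sum was 5.75 to 8.57 CPM in M11 and 7.1 to 10.2 in the parental line. Of 5 endothelial markers tested, 3 rose, and 1 with a minimum of 1 CPM in 3 libraries. Pecam1, an adhesion molecule of endothelium and platelets, had 3.12, 3.16 and 3.13 CPM in M11, against 0.0849, 0.114 and 0.17 CPM in parental cells (log2 fold change 4.65, SE 0.30, adjusted p = 7.74e-11), while Cldn5 had 0 reads in both lines. The endothelial sum was 3.61 to 4.33 CPM in M11 and 0.274 to 0.792 in the parental line. Of 4 fibroblast markers tested, Col3a1 and Pdgfra rose and Col1a1 fell. The fibroblast sum was 710 to 967 CPM in M11 and 141 to 151 in the parental line, most of it from Col3a1, while Dcn and Lum had at most 2 reads in any of these libraries. The part of other cells in the rises of Pecam1 and Col3a1 was not tested.

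Of 21 proteases and inhibitors, 9 rose (42.9%) and 3 fell (14.3%), beside 20.8% and 20% of all genes. Adam19, a membrane-bound metalloprotease, had 2.94, 2.16 and 2.85 CPM in M11, against 0.198, 0.137 and 0.0852 CPM in parental cells (log2 fold change 4.22, SE 0.40, adjusted p = 7.14e-07). Reck, a membrane inhibitor of matrix metalloproteases, averaged 1.14 ± 0.21 CPM in M11 and 0.123 ± 0.11 in the parental line (log2 fold change 3.25, SE 0.53, adjusted p = 4.08e-05), and Mmp3, the stromelysin gene, 0.311 ± 0.18 CPM in M11 and 3.08 ± 0.5 in the parental line (log2 fold change -3.20, SE 0.44, adjusted p = 4.9e-06). Of 12 integrins, 6 rose (50%) and 2 fell (16.7%). Itgb2, the β chain of leukocyte integrins, had 17.2, 17.9 and 15.8 CPM in M11, against 2.86, 1.73 and 2.1 CPM in parental cells (log2 fold change 2.93, SE 0.17, adjusted p = 2.42e-11). Itgb3, the β chain that pairs with αv, averaged 43.5 ± 4.3 CPM in M11 and 11.1 ± 3.5 in the parental line (log2 fold change 1.98, SE 0.20, adjusted p = 2.7e-07), Itgb7 79.8 ± 13 CPM in M11 and 22.2 ± 4.1 in the parental line (log2 fold change 1.85, SE 0.21, adjusted p = 1.03e-06) and Itgb4, the laminin-binding chain, 21.7 ± 6 CPM in M11 and 8.04 ± 3.5 in the parental line (log2 fold change 1.43, SE 0.32, adjusted p = 0.00149).

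Interferon-stimulated genes were lower in M11 than in the parental line, and the size of that fall differed between parental libraries. Of 40 tested, 35 passed as lower and 0 as higher (median -2.00), beside 20% lower over all genes. Oas2, an enzyme that senses double-stranded RNA, had 0.267, 0.344 and 0.326 CPM in M11, against 27.2, 19.1 and 3.49 CPM in parental cells (log2 fold change -5.74, SE 0.62, adjusted p = 7.79e-07). Its relative Oas3 had 3.23, 8.52 and 9.04 CPM in M11, against 101, 52 and 13.6 CPM in parental cells (log2 fold change -3.03, SE 0.61, adjusted p = 0.000959). Parental replicate 3 was the lowest of its group in each of these genes. Ifi44 had 1.67, 4.98 and 6.15 CPM in M11, against 69, 29.8 and 9.32 CPM in parental cells (log2 fold change -3.11, SE 0.59, adjusted p = 0.000565), Rtp4 had 1.71, 5.92 and 4.19 CPM in M11, against 58.5, 32 and 5.45 CPM in parental cells (log2 fold change -3.04, SE 0.73, adjusted p = 0.00369), and Ifi27l2a had 0.757, 1 and 0.855 CPM in M11, against 27.5, 34.4 and 13 CPM in parental cells (log2 fold change -4.85, SE 0.32, adjusted p = 1.93e-10). The summed level of the 40 genes was 504, 803 and 684 CPM in M11, 315, 436 and 302 CPM in M12, and 2434, 1579 and 750 CPM in the parental line. The empty vector line averaged 0.146 CPM for Oas2, 2.36 for Oas3, 0.63 for Ifi44, 0.985 for Rtp4 and 0.462 for Ifi27l2a. Each was below the M11 mean. The interferon-induced gene Samd9l, at 26.8 CPM there, lay between M11 (12.8) and the parental line (88.2). Whether the difference belongs to M11 or to these parental libraries was not tested. Parental replicate 1 lay above all M11 libraries for 40 of the genes, replicate 2 for 38 and replicate 3 for 13, and the groups did not overlap for 13 of 40, beside 19.5% of all genes that did not overlap and were lower. The count of lower genes was 19 without parental replicate 1, 23 without M11 replicate 1 and 10 with the 6 libraries alone. In that last fit Ifi44 (adjusted p = 0.0797), Oas3 (0.0747) and Rtp4 (0.103) did not pass. Close relatives among the Oas and Ifi genes share reads, and their levels depend on how these were divided.

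The promoters of these genes are shown because many of them hold a short motif of the kind that interferon-activated factors are known to bind. The windows run from 250 bases before to 50 bases after a start (RefSeq, build GRCm38.p6), and the motif was TTTCNNTTTC on either strand, GAAANNGAAA when read on the other one. Of the 40 genes, 28 had a window, and 15 of those (53.6%) held the motif in at least 1 window, while 3.99% of all 27025 genes and 3.44% of all 32851 windows did. The 3 shown are those with the largest falls among members that hold it, passed the threshold and averaged at least 5 CPM in the parental line, and capitals mark the motif, with overlapping matches joined. Isg15 and Trim30a were chosen by that rule after values were seen. The windows lie at chr5:120777610-120777909 (Oas3), chr4:156200769-156201068 (Isg15) and chr7:104465144-104465443 (Trim30a), all on the minus strand.
Oas3: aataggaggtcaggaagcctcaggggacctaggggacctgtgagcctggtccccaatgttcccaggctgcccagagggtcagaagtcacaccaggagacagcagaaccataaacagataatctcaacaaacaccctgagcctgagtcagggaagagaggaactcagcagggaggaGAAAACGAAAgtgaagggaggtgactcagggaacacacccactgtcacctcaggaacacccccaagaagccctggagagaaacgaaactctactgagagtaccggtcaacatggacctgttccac
Isg15: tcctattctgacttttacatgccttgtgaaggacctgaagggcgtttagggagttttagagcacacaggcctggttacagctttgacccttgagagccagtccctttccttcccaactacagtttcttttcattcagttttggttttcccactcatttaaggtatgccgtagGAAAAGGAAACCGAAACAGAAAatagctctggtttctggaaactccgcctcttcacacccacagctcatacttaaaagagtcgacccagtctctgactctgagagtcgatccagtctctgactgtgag
Trim30a: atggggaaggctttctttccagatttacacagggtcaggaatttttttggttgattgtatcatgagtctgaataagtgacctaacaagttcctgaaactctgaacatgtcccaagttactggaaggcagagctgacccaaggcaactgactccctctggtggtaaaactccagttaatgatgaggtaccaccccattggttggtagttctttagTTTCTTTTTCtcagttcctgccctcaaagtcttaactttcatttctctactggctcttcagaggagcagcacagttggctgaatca
Isg15, a ubiquitin-like protein, had 4.56, 12.4 and 7.33 CPM in M11, against 102, 60 and 11.7 CPM in parental cells (log2 fold change -2.85, adjusted p = 0.00123), and its window holds 3 overlapping matches. Trim30a, a TRIM family ubiquitin ligase, had 1.83, 2.57 and 2.08 CPM in M11, against 21.6, 13.2 and 6.5 CPM in parental cells (log2 fold change -2.68, adjusted p = 9.64e-06). A match is a description of the letters, and binding was not measured.

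MHC class I and antigen processing genes, many of which respond to interferon, were tested for 17 genes, of which 5 rose and 2 fell (median 0.30). The 2 became 1 with library totals, limma-voom, TPM or the 6 libraries alone, and without M11 replicate 2 or 3 or parental replicate 1 or 2. Psmb8, an immunoproteasome subunit gene, had 46.1, 55.9 and 52.7 CPM in M11, against 23.7, 22.6 and 16.8 CPM in parental cells (log2 fold change 1.29, SE 0.16, adjusted p = 2.03e-06). Psmb9, another of these subunits, had 11, 12.3 and 11.1 CPM in M11, against 5.41, 4.31 and 2.1 CPM in parental cells (log2 fold change 1.54, SE 0.27, adjusted p = 0.000104). The third immunoproteasome subunit gene, Psmb10, averaged 9.45 ± 0.72 CPM in M11 and 17.2 ± 1.7 in the parental line (log2 fold change -0.87, SE 0.23, adjusted p = 0.00435). Nlrc5, the transactivator of MHC class I genes, averaged 29.9 ± 2.3 CPM in M11 and 20.7 ± 4.7 in the parental line (log2 fold change 0.53, SE 0.15, adjusted p = 0.00681).

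Of 25 chemokines and cytokines tested, 7 rose (28%) and 2 fell (8%), beside 20.8% and 20% of all genes. The 2 became 4 without parental replicate 3, and 1 on TPM, with the 6 libraries alone, with a minimum of 1 CPM in 3 libraries, or without M11 replicate 1 or 3 or parental replicate 1 or 2. Il33, an alarmin of barrier cells, had 3.32, 3.41 and 2.48 CPM in M11, against 0.17, 0.137 and 0.114 CPM in parental cells (log2 fold change 4.44, SE 0.59, adjusted p = 4.5e-06), and Il34, a ligand of the CSF1 receptor, had 33.9, 35.3 and 34.2 CPM in M11, against 11.4, 8.71 and 12.4 CPM in parental cells (log2 fold change 1.67, SE 0.15, adjusted p = 2.06e-08). Ptgs2, the inducible cyclooxygenase COX-2, averaged 2.75 ± 0.23 CPM in M11 and 0.358 ± 0.1 in the parental line (log2 fold change 2.95, SE 0.29, adjusted p = 5.35e-08), and Il18 1.05 ± 0.14 CPM in M11 and 0.35 ± 0.29 in the parental line (log2 fold change 1.61, SE 0.41, adjusted p = 0.00338). Osm, the oncostatin M gene, chosen after its values were seen, had 54 reads in M11 and 0 in the parental line, at least 20.3-fold higher. Of 25 growth factors and receptors, 7 rose and 5 fell, shares of 28% and 20% that lie near the 20.8% and 20% of all genes. The 5 became 3 with library totals, with the 6 libraries alone, or without M11 replicate 1 or 3 or parental replicate 1 or 2, and 2 and 3 on TPM. Igf2r, which clears IGF2 from the cell surface, had 44.5, 52.7 and 52.8 CPM in M11, against 8.92, 7.73 and 7.07 CPM in parental cells (log2 fold change 2.66, SE 0.15, adjusted p = 1.49e-11). Erbb3, a receptor for neuregulins, had 1.34, 1.31 and 0.936 CPM in M11, against 12.8, 11 and 9 CPM in parental cells (log2 fold change -3.17, SE 0.17, adjusted p = 4.58e-12). Fgf21 averaged 0.108 ± 0.057 CPM in M11 and 1.99 ± 1 in the parental line (log2 fold change -4.27, SE 0.50, adjusted p = 6.5e-07).

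Sterol and fatty acid synthesis genes were lower in M11. Of 38 tested, 24 fell and 1 rose (median -0.54). Cyp51, which removes a methyl group from lanosterol, had 33.6, 37.1 and 28.8 CPM in M11, against 149, 144 and 65.2 CPM in parental cells (log2 fold change -1.85, SE 0.27, adjusted p = 3.88e-05), and Idi1, an isomerase of the isoprenoid pathway, 37.9, 36.7 and 21.3 CPM in M11, against 122, 107 and 41.7 CPM in parental cells (log2 fold change -1.49, SE 0.34, adjusted p = 0.00225). Fads2, a fatty acid desaturase, had 31.1, 39.8 and 35.5 CPM in M11, against 108, 107 and 78.4 CPM in parental cells (log2 fold change -1.46, SE 0.17, adjusted p = 1.3e-06), and Acss2, which makes acetyl-CoA from acetate, 3.36, 2.94 and 3.62 CPM in M11, against 14.5, 9.17 and 4.46 CPM in parental cells (log2 fold change -1.51, SE 0.37, adjusted p = 0.00364). Parental replicate 3 was the lowest of its group for all 4 genes and remained above every M11 library. Summed over the list, M11 libraries held 2979 to 3188 CPM and parental libraries 3459 to 4905. With the 6 libraries alone Idi1 did not pass (adjusted p = 0.055). The empty vector line averaged 45.8 CPM for Cyp51, 45.2 for Idi1, 73.2 for Fads2 and 4.27 for Acss2, each between the M11 and parental means. Of the 38 genes, 20 were lower and 1 was higher in M12 than in the parental line. Against M12, 4 were higher and 6 lower in M11 (median -0.05). Whether the difference belongs to M11 or to these parental libraries was not tested.

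Genes of the ATF4 and amino acid stress list also leaned lower: of 29 tested, 13 fell and 2 rose (median -0.39), and the 13 became 6 on either TPM scale. Psph, the last enzyme of serine synthesis, had 49.6, 41.2 and 48.4 CPM in M11, against 123, 120.4 and 93.5 CPM in parental cells (log2 fold change -1.27, SE 0.11, adjusted p = 1.05e-08), and Shmt2, the mitochondrial serine hydroxymethyltransferase, had 239, 246 and 295 CPM in M11, against 503, 479 and 504 CPM in parental cells (log2 fold change -0.93, SE 0.11, adjusted p = 7.17e-07). The transcription regulator genes Nupr1 and Atf5 changed by -0.77 and -0.72 on the log2 scale. Of 28 nuclear oxidative phosphorylation genes, 13 fell and 2 rose (median -0.20), with changes that were small: Atp5b, a subunit of ATP synthase, averaged 1103 ± 30 CPM in M11 and 1727 ± 59 in the parental line (log2 fold change -0.65, SE 0.08, adjusted p = 1.64e-06). Its partner Atp5a1 averaged 471 ± 49 CPM in M11 and 711 ± 49 in the parental line (log2 fold change -0.59, SE 0.09, adjusted p = 2.76e-05) and the cytochrome oxidase gene Cox6a1 109.8 ± 2.7 CPM in M11 and 167 ± 16 in the parental line (log2 fold change -0.60, SE 0.09, adjusted p = 1.08e-05). The lean of oxidative phosphorylation genes turned on either TPM scale, with 7 higher and 3 lower, where calls over all genes leaned higher too. With library totals alone it was 4 higher and 5 lower. The count of lower genes was 3 with the 6 libraries alone, 5 without parental replicate 2 and 8 without M11 replicate 3. Uqcrc2 passed with overlapping groups (-0.36) and did not pass in 7 alternatives (adjusted p = 0.0566 to 0.136).

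**Figure D3:**
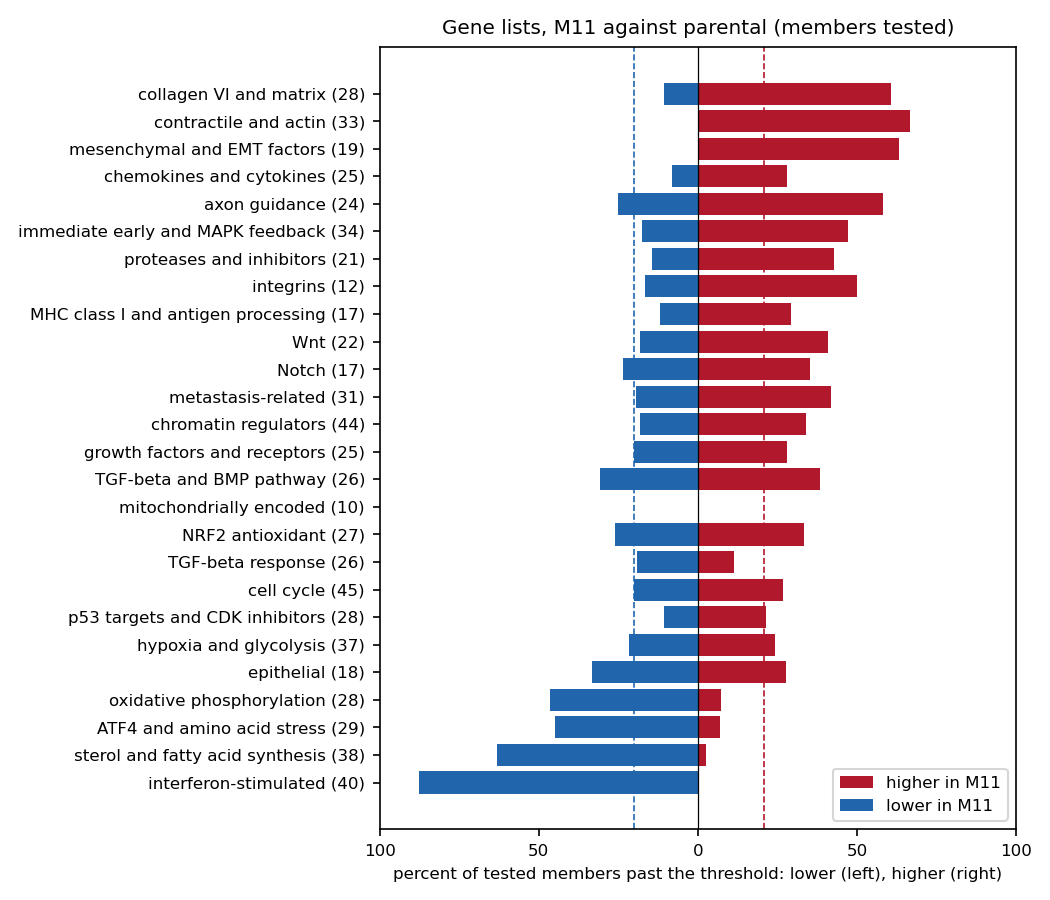
Percent of tested members of each gene list that passed the threshold as higher (right, red) or lower (left, blue) in M11 than in the parental line, with the number tested in brackets and lists ordered by median log2 fold change. Dashed lines mark the 20.8% higher and 20% lower over all genes; contractile and actin genes reach 66.7% higher and interferon-stimulated genes 87.5% lower.

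**Figure D4:**
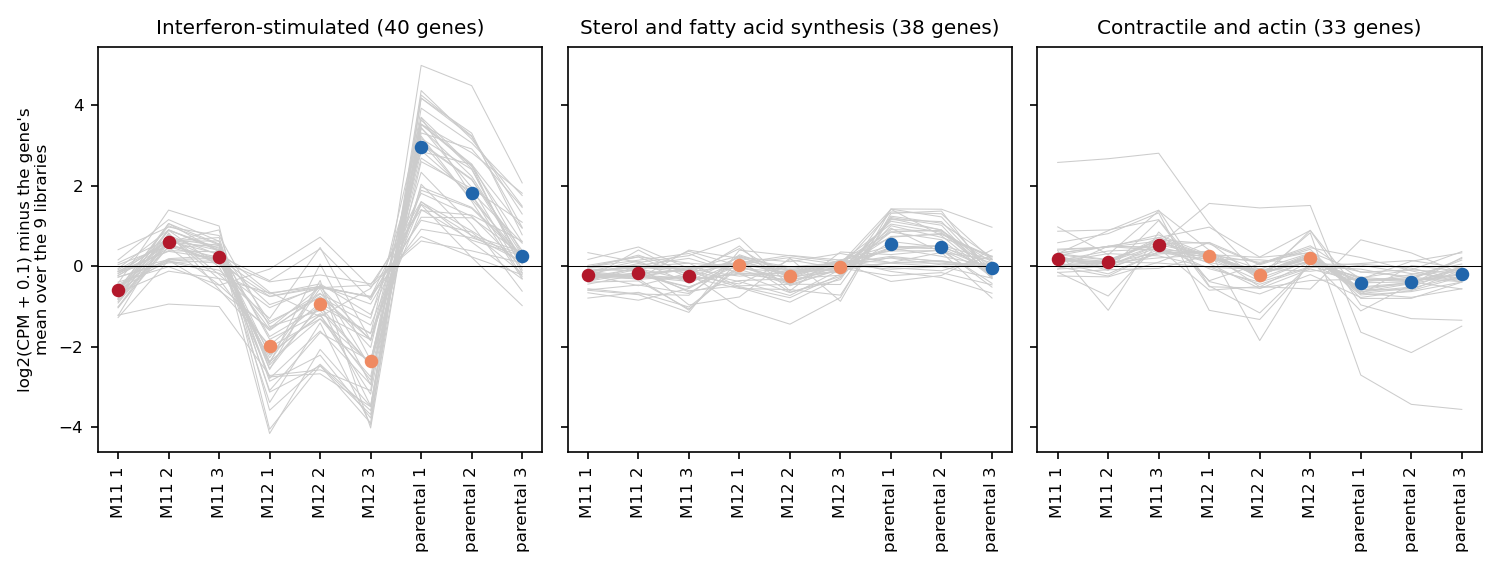
For each gene of 3 lists (grey lines), the log2(CPM + 0.1) in each of 9 libraries minus the gene's mean over them, with the median over the list as a coloured point (red M11, orange M12, blue parental). The interferon-stimulated median is highest in parental replicate 1 and, in parental replicate 3, lies close to the M11 libraries.

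Cell signalling lists moved in both directions. Of 34 immediate early genes and MAPK feedback genes, 16 rose and 6 fell (median 0.42). Spry4, an inhibitor of receptor tyrosine kinase signalling, had 61, 69.6 and 70.1 CPM in M11, against 14.7, 15.1 and 16.6 CPM in parental cells (log2 fold change 2.12, SE 0.10, adjusted p = 1.86e-12). Dusp1, a phosphatase of MAP kinases, averaged 23.1 ± 0.85 CPM in M11 and 9.06 ± 1.2 in the parental line (log2 fold change 1.35, SE 0.23, adjusted p = 0.000118), Etv1, an ETS factor, 42.1 ± 7.7 CPM in M11 and 15 ± 2.2 in the parental line (log2 fold change 1.49, SE 0.15, adjusted p = 1.05e-07), and the AP-1 gene Jund 33 ± 9 CPM in M11 and 75.2 ± 7.3 in the parental line (log2 fold change -1.19, SE 0.15, adjusted p = 2.74e-06). Of 22 Wnt genes, 9 rose (40.9%) and 4 fell (18.2%), beside 20.8% and 20% of all genes. The ligand gene Wnt5b averaged 8.66 ± 0.25 CPM in M11 and 2.74 ± 0.24 in the parental line (log2 fold change 1.66, SE 0.14, adjusted p = 4.75e-09) and the ligand gene Wnt11 1.48 ± 0.23 CPM in M11 and 0.367 ± 0.0023 in the parental line (log2 fold change 2.00, SE 0.34, adjusted p = 8.27e-05). The target Axin2 averaged 1.19 ± 0.3 CPM in M11 and 3.12 ± 0.68 in the parental line (log2 fold change -1.41, SE 0.25, adjusted p = 0.000124), and the receptor Fzd2 5.17 ± 1.2 CPM in M11 and 12.6 ± 1.8 in the parental line (log2 fold change -1.30, SE 0.18, adjusted p = 4.47e-06). Dkk2 and Wnt5a, chosen after their values were seen, had 0 reads in the parental line and 48 and 24 in M11, at least 18.1-fold and at least 9.03-fold higher. Of 17 Notch genes, 6 rose (35.3%) and 4 fell (23.5%). The receptors Notch4 and Notch2 changed by 2.40 and 1.05, the ligand Dll1 by 1.54, and Mfng, a glycosyltransferase that modifies Notch, by -2.07.

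TGF-β pathway genes are of interest because the study centres on ZBTB18 and TGFBR2. TGF-β binds the receptor TGFBR2, which activates TGFBR1, and ZBTB18 is a zinc finger repressor. Tgfbr2 had 20.2, 21.6 and 22.2 CPM in M11, against 13.2, 13.4 and 14.7 CPM in parental cells (log2 fold change 0.63, SE 0.09, adjusted p = 5.48e-06). The empty vector line averaged 26.6 CPM for Tgfbr2, above every M11 library. M12 averaged 19.3 CPM, and M11 did not pass against it (log2 fold change 0.15, adjusted p = 0.197). The part of these parental libraries in the rise was not tested. Tgfbr1 had 14.2, 13.4 and 14.9 CPM in M11, against 18.4, 16.7 and 21 CPM in parental cells (log2 fold change -0.40, SE 0.10, adjusted p = 0.00348), a call lost on TPM (adjusted p = 0.172 and 0.163). Tgfbr1 averaged 30.4 CPM in M12 and 29.1 in the empty vector line, both above the parental mean of 18.7. Zbtb18 had 39.5, 32.7 and 31.8 CPM in M11, against 30.8, 29.7 and 28 CPM in parental cells and did not pass (log2 fold change 0.24, SE 0.11, adjusted p = 0.0825). It did pass with library totals alone (0.33, adjusted p = 0.031) and on TPM (0.45 and 0.48). In M12, Zbtb18 averaged 59.2 CPM, higher than in the parental line (log2 fold change 1.00, adjusted p = 9.86e-08). M11 was lower than M12 for this gene (log2 fold change -0.77, adjusted p = 8.49e-06). The empty vector line averaged 25.1 CPM for it. Of 26 TGF-β and BMP pathway genes, 10 rose and 8 fell, and the 8 became 5 with library totals or with the 6 libraries alone, and 2 on TPM. Without M11 replicate 3 the counts were 7 and 8. Bmp7 averaged 5.03 ± 1.4 CPM in M11 and 0.953 ± 0.19 in the parental line (log2 fold change 2.38, SE 0.34, adjusted p = 1.28e-05), Chrd, which binds and blocks BMPs, 0.587 ± 0.18 CPM in M11 and 4.07 ± 1.7 in the parental line (log2 fold change -2.83, SE 0.36, adjusted p = 1.89e-06), and the receptor Acvrl1 1.45 ± 0.15 CPM in M11 and 0.678 ± 0.097 in the parental line (log2 fold change 1.08, SE 0.22, adjusted p = 0.000563). Tgfb2, a TGF-β ligand, averaged 1.4 ± 0.44 CPM in M11 and 2.48 ± 0.47 in the parental line (log2 fold change -0.81, SE 0.31, adjusted p = 0.0407), a call lost in 8 of the alternatives, among them without M11 replicate 2 or 3 or parental replicate 2 or 3 (adjusted p = 0.0654 to 0.177). Of 26 TGF-β response genes, 3 rose and 5 fell, shares of 11.5% and 19.2%. The lean turned on TPM, where calls over all genes leaned higher too, with 10 higher and 3 lower (log2(TPM + 1)) or 8 and 3 (log2(TPM + 0.1)). With library totals or without parental replicate 3, 5 were higher and 5 lower. Ltbp2 and Ltbp1, which encode latent TGF-β binding proteins, rose by 4.28 and 1.32, while both matricellular protein genes Ccn4 and Ccn2 fell. Ccn4 averaged 2.57 ± 0.77 CPM in M11 and 25.7 ± 1.8 in the parental line (log2 fold change -3.34, SE 0.20, adjusted p = 5.31e-11), and Ccn2 averaged 2.02 ± 0.59 CPM in M11 and 6.58 ± 3.1 in the parental line (log2 fold change -1.70, SE 0.40, adjusted p = 0.00251).

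Axon guidance genes, many of which encode ligands and receptors that also act on tumour cells and vessels, were largely changed: of 24 tested, 14 rose and 6 fell (median 0.44). Slit1, a ligand of ROBO receptors, had 26.4, 30.1 and 33.7 CPM in M11, against 0.793, 0.821 and 0.795 CPM in parental cells (log2 fold change 5.22, SE 0.20, adjusted p = 6.07e-14). Sema6d, a transmembrane semaphorin, had 17.7, 20.3 and 23.5 CPM in M11, against 1.44, 1.46 and 2.04 CPM in parental cells (log2 fold change 3.64, SE 0.21, adjusted p = 2.52e-11). Ntn4, a netrin of basement membranes, had 0.245, 0.188 and 0.285 CPM in M11, against 3.94, 4.2 and 4.46 CPM in parental cells (log2 fold change -4.13, SE 0.37, adjusted p = 1.31e-08). The secreted semaphorin gene Sema3a had 3 reads in M11 and 222 in the parental line, a level 65.6-fold lower in M11 with a 95% counting interval of 22.1 to 320. The falls in this list numbered 3 on either TPM scale.

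Of 31 metastasis-related genes, 13 rose (41.9%) and 6 fell (19.4%), beside 20.8% and 20% of all genes. The 6 became 3 on TPM. Beside S100a4, Ptgs2 and Itgb3, this list held Spp1, the osteopontin gene, which averaged 228 ± 19 CPM in M11 and 77.7 ± 6.4 in the parental line (log2 fold change 1.55, SE 0.16, adjusted p = 1.12e-07). Of 44 chromatin regulators, 15 rose (34.1%) and 8 fell (18.2%). The 15 became 9 without parental replicate 1 or 2, and with the 6 libraries alone 8 rose and 4 fell. The 8 became 5 with library totals and 2 on TPM. Hmga2, an architectural chromatin protein, had 214, 199 and 208 CPM in M11, against 66.6, 69.8 and 92.7 CPM in parental cells (log2 fold change 1.44, SE 0.12, adjusted p = 6.11e-09). Nsd1, a histone H3 lysine methyltransferase, had 2.05, 2.35 and 3.01 CPM in M11, against 13.3, 11.8 and 11.9 CPM in parental cells (log2 fold change -2.33, SE 0.29, adjusted p = 1.9e-06). Kdm5b, a histone demethylase, averaged 30.8 ± 3.6 CPM in M11 and 15.9 ± 2.1 in the parental line (log2 fold change 0.95, SE 0.12, adjusted p = 1.17e-06), and the Polycomb gene Cbx7 25 ± 5.3 CPM in M11 and 47 ± 9.6 in the parental line (log2 fold change -0.91, SE 0.26, adjusted p = 0.01).

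Cell cycle, p53 and hypoxia lists had shares of 21.4 to 26.7% higher and 10.7 to 21.6% lower, beside 20.8% and 20% of all genes. NRF2 antioxidant genes had 33.3% and 25.9%. Of 45 cell cycle genes, 12 rose and 9 fell. The lean turned when 1 of 3 libraries was left out, with 7 higher and 11 lower without parental replicate 1, 7 and 8 without parental replicate 2 and 6 and 9 without M11 replicate 3. It was 5 and 6 with the 6 libraries alone, and 18 and 3 on TPM. Cenpf, a kinetochore protein, averaged 223 ± 22 CPM in M11 and 106 ± 22 in the parental line (log2 fold change 1.08, SE 0.14, adjusted p = 4.6e-06), the kinase gene Cdk4 270.3 ± 11 CPM in M11 and 399.8 ± 24 in the parental line (log2 fold change -0.56, SE 0.08, adjusted p = 1.11e-05), and Tyms, which makes thymidylate, 37.6 ± 4.8 CPM in M11 and 62.4 ± 9.4 in the parental line (log2 fold change -0.73, SE 0.11, adjusted p = 1.08e-05). E2f2 changed by -0.56, a call lost on TPM (adjusted p = 0.0944 and 0.0936). Of 28 p53 targets and CDK inhibitors, 6 rose and 3 fell, but 5 rose and 6 fell without parental replicate 1, 5 and 5 without parental replicate 3, and 11 and 3 on log2(TPM + 0.1). Among them were Zmat3 at 0.66, Gadd45a at 1.06, Gadd45b at -1.21 and the death receptor gene Tnfrsf10b at -0.67. The Gadd45a call was lost without M11 replicate 2 or parental replicate 2 or 3 (adjusted p = 0.0644 to 0.0708). Of 37 hypoxia and glycolysis genes, 9 rose and 8 fell. The counts were 7 and 8 without parental replicate 1, 6 and 5 without parental replicate 2, 8 and 5 without M11 replicate 2, 5 and 4 with the 6 libraries alone, 11 and 4 with library totals and 11 and 2 on TPM. Slc2a1, the glucose transporter GLUT1, averaged 209 ± 25 CPM in M11 and 132 ± 12 in the parental line (log2 fold change 0.66, SE 0.09, adjusted p = 4.2e-06), Ddit4 57.4 ± 2.7 CPM in M11 and 108 ± 28 in the parental line (log2 fold change -0.91, SE 0.17, adjusted p = 0.000345), and the carbonic anhydrase genes Car12 and Car9 changed by -1.08 and 0.78. The Car9 call was lost with limma-voom, with the 6 libraries alone, without M11 replicate 1 and without parental replicate 3 (adjusted p = 0.0583 to 0.123). Of 27 NRF2 antioxidant genes, 9 rose and 7 fell, but 10 and 3 with library totals, 8 and 4 with the 6 libraries alone and 14 and 3 on TPM. Among them were Akr1b8 at 1.24, the quinone reductase gene Nqo1 at 0.82, Tkt of the pentose phosphate pathway at -0.87 and the glutathione transferase gene Gsta4 at -2.12.

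Calls leaned to 1 side on some chromosomes. On chromosome 1, 454 of 922 genes tested were higher in M11 (49.2%) and 68 were lower, and the median log2 fold change was 0.40. Windows of 20 Mb along it had medians of 0.169 to 0.541, and 8 of its 10 windows were above 0.3, out of 11 such windows among the 137 windows with at least 20 genes. On chromosome 5, 418 of 1006 genes were lower (41.6%) and 83 were higher, with a median of -0.28 and window medians of -0.306 to -0.128. The chromosome 5 count of lower genes was 314 with library totals and 190 and 192 on TPM, while the chromosome 1 count of higher genes was 359 to 541 over all alternatives. Chromosome 18 held both directions, with 97 genes higher and 9 lower between 20 and 40 Mb (median 0.48) and 6 higher and 61 lower between 60 and 80 Mb (median -0.46). Its windows from 0 to 20 Mb and from 80 to 100 Mb had medians of 0.40 and -0.49. In M12 over the parental line, chromosome 18 had medians of 0.0012 (0 to 20 Mb), 0.52 (20 to 40 Mb), -0.39 (60 to 80 Mb) and -0.30 (80 to 100 Mb). On chromosome 6 the window from 140 to 160 Mb was above 0.3 as well (median 0.33, and 0.0125 in M12). Windows with a median under -0.3 also lay on chromosome 14 (0 to 20 Mb, median -0.60, and 20 to 40 Mb, -0.43), chromosome 10 (100 to 120 Mb, -0.33, and 120 to 140 Mb, -0.43), chromosome 13 (20 to 40 Mb, -0.41), chromosome 12 (80 to 100 Mb, -0.37) and chromosome 15 (0 to 20 Mb, -0.31). In M12 over the parental line, these medians were -0.53, -0.39, -0.15, -0.35, -0.41, -0.27 and -0.09, in that order. The chromosome 13 window holds Hist1h1d and Hist1h4d, whose levels rested on parental replicate 1. Chromosome 13 had 97 genes higher and 134 lower in the main fit. The counts were 86 and 83 without parental replicate 1, and 98 and 97 with limma-voom. Among the genes named above, Col6a3, Col3a1, Prrx1, Ptgs2, Slc16a14, Cenpf, Kdm5b and Zbtb18 lie on chromosome 1, and so does Tgfb2, which was lower in M11. Sema3a, Oas2, Oas3, Cyp51, Psph, Tyms and Cox6a1 lie on chromosome 5, and so do Spp1 and Pdgfra, which were higher. Atp5b, Shmt2, Cdk4 and Erbb3 lie in the chromosome 10 window from 120 to 140 Mb, and so does Hmga2, which was higher. Atp5a1 lies in the chromosome 18 window from 60 to 80 Mb and Tkt on chromosome 14 between 20 and 40 Mb. Ltbp2, which was higher, lies in the low chromosome 12 window. Spry4 lies on chromosome 18 between 20 and 40 Mb, and so does Cd14, which was lower. The part of that lean in their values was not tested.

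**Figure D5:**
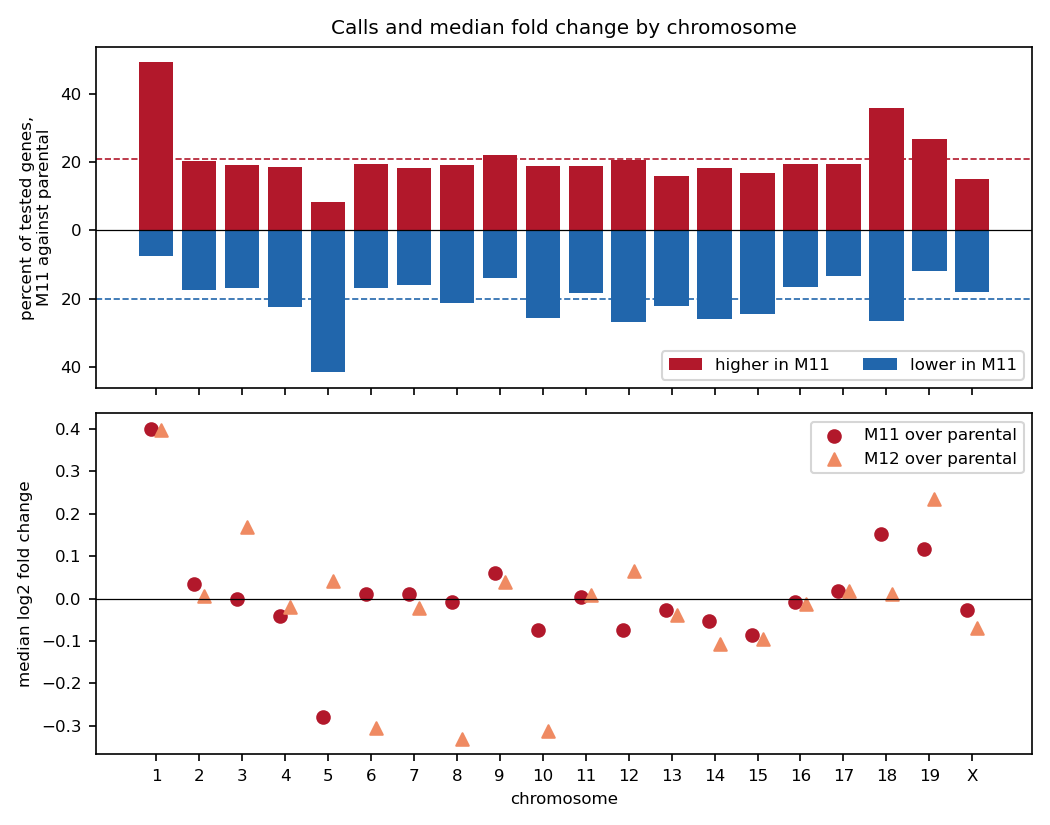
Upper panel: percent of tested genes on each chromosome that were higher (red, up) or lower (blue, down) in M11 than in the parental line, with dashed lines at the 20.8% and 20% of all genes. Lower panel: median log2 fold change per chromosome for M11 over parental (circles) and M12 over parental (triangles); chromosome 1 lies at 0.40 in both lines and chromosome 5 at -0.28 in M11 and 0.04 in M12.

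M11 was then compared directly with M12, so that differences between the 2 metastasis lines do not rest on the parental libraries. Of 15432 genes, 5474 passed (35.5%), 2730 higher in M11 (17.7%) and 2744 lower (17.8%). Slc16a14 had 23.5, 22.3 and 24.4 CPM in M11, against 0.238, 0.107 and 0.11 in M12 (log2 fold change 7.31, adjusted p = 4.03e-12). The secreted protein gene Tafa5 averaged 16.4 CPM in M11 and 0.279 in M12 (log2 fold change 5.86, adjusted p = 6.4e-12), Gas7, an actin-associated gene, 29.1 CPM in M11 and 0.502 in M12 (log2 fold change 5.85, adjusted p = 1.87e-12), and Rufy4 16.1 CPM in M11 and 0.304 in M12 (log2 fold change 5.72, adjusted p = 3.6e-12). Tns1, the tensin that links integrins to actin, had 92.9, 132 and 126 CPM in M11, against 2.7, 3.18 and 2.65 in M12 (log2 fold change 5.36, adjusted p = 5.8e-16). Samd9l, an interferon-induced gene, averaged 12.8 CPM in M11 and 0.368 in M12 (log2 fold change 5.16, adjusted p = 2.14e-08), and 88.2 in the parental line. Of the 40 interferon-stimulated genes, 26 were higher in M11 than in M12 and 0 were lower (median 2.03).

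In the other direction, Art3, an ADP-ribosyltransferase family gene, had 0 reads in M11 and 1820 in M12, at least 489-fold lower in M11. Col8a1, a collagen of vessel walls, averaged 0.122 CPM in M11 and 38.4 in M12 (log2 fold change -8.11, adjusted p = 2.68e-09). Ccbe1, a matrix-associated gene of lymphatic growth, averaged 0.194 CPM in M11 and 24.5 in M12 (log2 fold change -6.83, adjusted p = 5.39e-11), Tmem185b 0.0931 CPM in M11 and 7.37 in M12 (log2 fold change -6.47, adjusted p = 2.3e-09) and the lectin receptor gene Cd302 0.125 CPM in M11 and 11.7 in M12 (log2 fold change -6.40, adjusted p = 3.56e-10). Tex19.2 stood at 0.14 CPM in M11 and 23.9 in M12 (log2 fold change -7.41, adjusted p = 1.28e-16). Of the 3 genes that mark M11 against the parental line, Col6a3 (log2 fold change 1.90, adjusted p = 8.22e-08) and Actg2 (log2 fold change 2.06, adjusted p = 7.04e-06) were higher in M11 than in M12, while Dpp4, at 3 and 12 reads, did not pass (adjusted p = 0.173). Chromosome 5 held 37 genes higher and 472 lower in M11 than in M12 (median -0.33), and chromosome 1 126 and 174 (median -0.02). On chromosomes 6, 8 and 10 M11 stood above M12, with medians of 0.32, 0.32 and 0.24.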

How the data were processed

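RNA of 21 libraries was polyA-enriched and made into stranded libraries, per the labels' protocols. The authors deposited expected counts per gene, not normalised, and TPM, scaled for gene length and to a fixed sum, both made by RSEM. The submitters' processing notes name RSEM, STAR 2.7.1a, Trim Galore and GATK 4.1.2.0 and build mm10; the annotation release is not given in the sources used here. The deposited FPKM were not used here. The table held 55573 genes and 92 spike-ins, removed because they had 0 reads; 1.28% of values were not whole (tolerance 1e-06), and counts were rounded.

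Counts were fitted in R 4.3.3 with edgeR 4.0.16 (TMM, filter on low counts by group, quasi-likelihood F-test with robust spread). The model gave each of the 7 groups a mean, used all 21 libraries and left 14 residual degrees of freedom. Two-sided p-values were adjusted by Benjamini-Hochberg over 15432 genes, threshold 0.05. The SE is the absolute log2 fold change divided by the square root of F. Where a group had 0 reads, a fold is a bound against 3 reads over the group; with 1 to 3 reads it has an exact 95% binomial interval. Both cover counting error only, as the libraries carry no molecular identifiers. The fit was tested on simulated counts with the same spread for every gene and no outlying library, a simpler setting than these data.

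Chromosomes came from GENCODE vM21, which held 99.83% of gene identifiers without the version number. Named genes were those always given (Zbtb18, Tgfbr2, Tgfbr1, Gm42418, Col6a3, Actg2, Dpp4), the 12 highest and 12 lowest changes with a fold of at least 2, 5 CPM or more in whichever group was higher, groups apart and an official name, up to 4 members of each list with at least 1 CPM, and 6 each way against M12. A gene this rule chose is not reported here. The members, 31 gene lists and rule were chosen with earlier results of these data known, and the lists get no test of their own.

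Alternatives were DESeq2 1.42.0, limma-voom (limma 3.58.1), DESeq2 size factors, library totals, Gm42418 taken out, no filter, a minimum of 1 CPM in 3 libraries, log2(TPM + 1) or log2(TPM + 0.1) tested with limma, a fit of only the 6 libraries compared, a replicate block, and leaving out each replicate. Deviations of same-numbered M11 and M12 libraries from their group means correlated at 0.167, 0.292 and 0.166 over genes. For M11 replicate 2 and parental replicate 1, whose numbers differ, the value was 0.255. Whether the numbers mark pairs is therefore not known. The main fit has no replicate term, and the replicate block is the alternative that treats same-numbered libraries as belonging together. No replicate pair agreed within sampling noise, with a median chi-square of 6.1 to 40.1 times that of sampling.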

Additional observations from a re-analysis of the deposited data

Results flagged for a closer look

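For 12 of the 136 genes chosen by the naming rule, M11 and M12 each passed edgeR's test against the parental line in opposite directions. The difference between M11 and M12 passed as well. The 2 comparisons with the parental line share its libraries, and the tested value is M11 minus M12, which does not use them in its difference. Opposite calls against the same libraries make a call between M11 and M12 likely, so that call adds little. Tafa5, Gas7, Rufy4, Tns1, Tex19.2 and Cd302 were named for their large differences between M11 and M12. The share of all genes with this pattern was not counted. Higher in M11 than in the parental line and lower in M12 were Tafa5 (M11 minus M12 log2 fold change 5.86), Gas7 (5.85), Rufy4 (5.72), Tns1 (5.36), S100a4 (4.37), Itgb4 (2.75), Psmb9 (2.60) and Nlrc5 (1.28). S100a4 averaged 318 CPM in M11, 15.4 in M12 and 64.6 in the parental line, and Tns1 117 CPM in M11, 2.84 in M12 and 34.1 in the parental line. Lower in M11 and higher in M12 were Tex19.2 (-7.41), Cd302 (-6.40), Cd14 (-2.12) and Tgfbr1 (-1.10). Cd302 averaged 0.125 CPM in M11, 11.7 in M12 and 1.91 in the parental line. For Tgfbr1 the fall in M11 against the parental line was lost on TPM.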

How the results depend on the processing

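Of the counts over all genes, those below moved by over 1.5 times; gene lists whose counts moved so far by more than 1 gene, or whose lean turned, have those values beside them above. With no filter on low counts, lists cover more members, and counts became 7 higher and 8 lower for TGF-β response, 10 and 7 for p53 targets, 9 and 4 for MHC class I genes, 10 and 4 for cytokines, 11 and 5 for proteases, 13 and 10 for metastasis-related genes and 8 and 9 for hypoxia genes. With the 6 libraries of a comparison alone, 4015 genes passed against the parental line (main count 6288), 1826 of them lower (3081), and 3497 against M12 (5474); of the 6288, 3948 remained (62.8%). That fit has fewer samples. On log2(TPM + 1), 1287 genes were lower, and 580 and 163 reached a fold of 2 as higher and lower (1083 and 701); on log2(TPM + 0.1), 1282 were lower and 403 reached that fold. The cause was not tested. Leaving out each replicate in turn gave 5067 (without parental replicate 2) to 6947 (without parental replicate 3) calls, 2576 to 3484 higher and 2491 to 3463 lower, 973 to 1104 and 539 to 844 at 2-fold, and 4715 to 5341 against M12. DESeq2 called 6422 and limma-voom 6065. Deviations of same-numbered M11 and parental libraries correlated at -0.103, 0.0804 and 0.237. A replicate block gave 6666 calls against the parental line and 5857 against M12. Of the named genes it changed only the call of Ccbe1 against the parental line (1.65, adjusted p = 0.0429). Genes with few reads in 1 group give only wide intervals.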
